A study of Mus musculus with 8 samples.

Results

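The genes described here are those of the DNA replication machinery, read in mouse liver after a mitogen in the presence and absence of MET and EGFR signalling. A list of 38 gene symbols was taken, and the array's annotation gave at least 1 probe set of its own to 37 of them, out of 18193 genes in all. The list was split by role into the MCM helicase, proteins that load and start the helicase, polymerases and primase, the sliding clamp and its loader, single-strand binding proteins, enzymes that join Okazaki fragments, nucleotide synthesis, and chromatin copying. Only Chaf1a had no such probe set. Where a gene had several probe sets, the one with the highest mean signal over the arrays was read, and the others are also given.

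Every mouse carried floxed Met alleles and a tamoxifen-inducible Cre (given as Metff/ff:ERCre+/+). The MET KO + EGFRi arm received 5 daily intraperitoneal injections of tamoxifen (100 µl at 10 mg/ml in corn oil) to delete Met systemically, and from 1 day before TCPOBOP a diet with canertinib, an EGFR inhibitor, planned at 80 mg/kg/day. The control arm consisted of littermates that received corn oil alone. Both arms were given TCPOBOP by gavage, 1 dose of 3 mg/kg, at least 5 days after the last tamoxifen injection, and livers were taken at days 0, 1, 2 and 5. Livers of a group were pooled, with 1 array for each of the 8 groups, so that no value has a replicate. Tamoxifen, Met deletion and canertinib were given to the same arm and cannot be told apart here. The promoter that drives Cre, the sex and age of the mice, the number of livers in a pool and whether the day 0 mice had been dosed are not given in the labels.

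DNA replication begins when the origin recognition complex loads a ring of MCM proteins onto DNA in G1. CDC45 and the GINS complex then turn that ring into the active helicase, primase and the polymerases copy both strands, and the clamp PCNA holds the polymerases on DNA. Adult hepatocytes rest outside the cell cycle and hold few of these proteins. TCPOBOP, an agonist of the constitutive androstane receptor, makes mouse hepatocytes enter S phase without loss of tissue, and most of these genes are classical targets of E2F transcription factors.

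Values are MAS5 signals, on a linear scale that sets the trimmed mean of every array to 500. Differences are given as log2 of the signal plus 71, the lower quartile of all signals, which makes the folds of weak genes too small. Array medians over all probe sets ran from 224 to 251, and the ratio of 3' to 5' actin probe sets from 1.57 to 2.36, highest in MET KO + EGFRi at day 5. The brighter probe set of Met, the deleted gene, had 1444, 926, 1336 and 1149 in control livers and 1502, 1049, 2034 and 1358 in those of MET KO + EGFRi, with the 4 values of an arm here and throughout in the order of days 0, 1, 2 and 5. It was not lower in MET KO + EGFRi on any day, and the other Met probe set, with 786, 561, 359 and 531 in control livers and 639.5, 532, 650 and 389 in those of MET KO + EGFRi, was lower on days 0, 1 and 5 and higher on day 2. Whether either lies in the deleted part of Met was not examined, so they do not check the labels. The hepatocyte marker Alb had 37254, 50479, 42800 and 77082 in control livers and 38805, 50765, 68204 and 69876 in those of MET KO + EGFRi. A mean at or above the median over all probe sets was reached by 26 of the 37 replication genes, and only those were tested. The 11 others were Mcm6, Orc6, Cdc45, Gins1, Gins2, Pole, Rfc3, Rfc4, Rpa2, Tyms and Uhrf1, which are described with the rest.

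In control livers 30 of the 37 genes stood above their day 0 signal on day 1 and 30 on day 2, where 46.2 and 43.7 percent of all genes did, and their median was back near it on day 5. In MET KO + EGFRi livers the median of days 1 and 2 was closer to day 0, and at day 5 it lay above that of control. Rrm2, the inducible subunit of ribonucleotide reductase, and Mcm2 had the largest differences between the arms at day 2. In bulk liver, fewer cells in S phase and less RNA per cell cannot be told apart.

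The median change of the 37 genes from day 0 in control was 0.57 at day 1, 0.44 at day 2 and -0.01 at day 5 on the log2 scale, beside medians of -0.03, -0.06 and 0.01 over all 18193 genes. At day 1, 8 of the 37 were at least 2-fold above day 0, where 2.97 percent of all genes were. At day 2 there were 4, against 2.99 percent of all genes, and at day 5 2, against 3.64 percent. In MET KO + EGFRi the median was 0.30, 0.14 and 0.22 at days 1, 2 and 5. The genes at least 2-fold above day 0 numbered 3, 2 and 3, against 2.26, 2.84 and 3.66 percent of all genes. The changes of an arm share its day 0 array. From day 2 to day 5 the median was -0.62 for control and 0.18 for MET KO + EGFRi. At day 5, 8 of the 37 were at least 2-fold below day 2 in control, against 2.83 percent of all genes, and 1 was at least 2-fold above it in MET KO + EGFRi, against 2.8 percent.

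**Figure D1:**
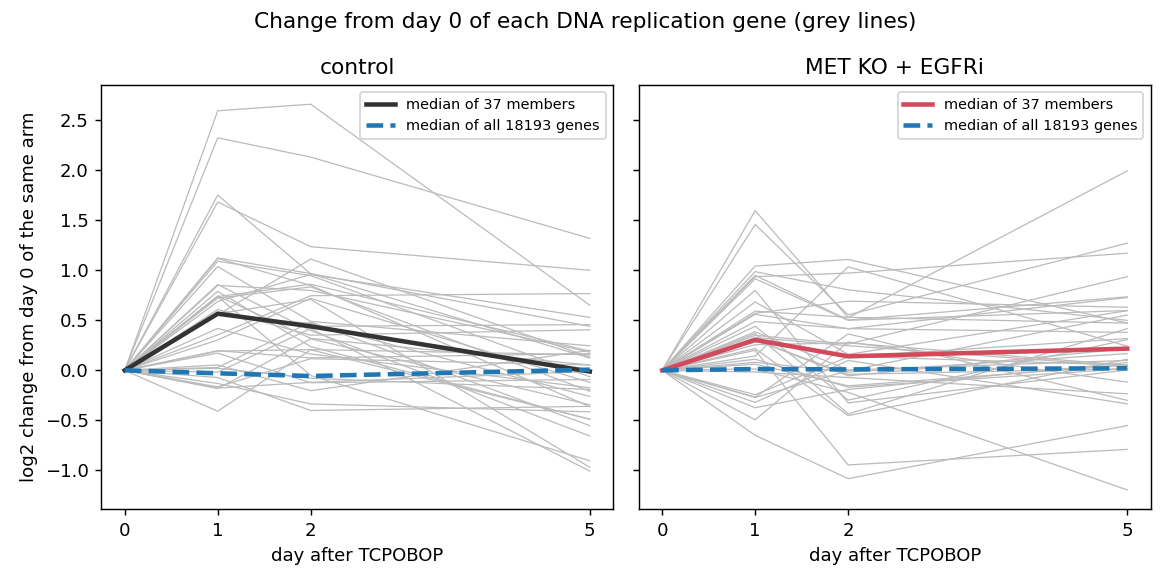
Log2 change of signal from day 0 of the same arm (vertical axis) against day after TCPOBOP (horizontal axis), 1 array per point. Grey lines are the 37 genes, the thick line is their median and the dashed line the median of all 18193 genes. The control median stands at 0.57 on day 1 and -0.01 on day 5, and the MET KO + EGFRi median at 0.30 and 0.22.

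The day of the highest signal was read for each gene. In control, 19 of 37 genes were highest at day 1, 13 at day 2, 3 at day 0 and 2 at day 5. In MET KO + EGFRi 19 were highest at day 1, 7 at day 2, 2 at day 0 and 9 at day 5. Over all genes the shares highest on days 0, 1, 2 and 5 were 29.3, 20.1, 20.2 and 30.4 percent for control, and 23.9, 24.6, 24.0 and 27.4 percent for MET KO + EGFRi.

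Set against each other on the same day, the arms had a median difference (MET KO + EGFRi minus control) over the 37 genes of 0.00 at day 0, -0.41 at day 1, -0.42 at day 2 and 0.22 at day 5. The same medians over all genes were -0.03, 0.01, 0.03 and -0.01. At day 1, 27 of the 37 were lower in MET KO + EGFRi, where 49.5 percent of all genes were, and none reached 2-fold in either direction, beside 3.31 percent of all genes lower and 3.46 percent higher. At day 2, 29 were lower, against 46.8 percent, and 4 (Rrm2, Mcm2, Gins1 and Rpa1) were at least 2-fold lower, against 2.77 percent of all genes. None was 2-fold higher at day 2, where 3.77 percent of all genes were. At day 5, 25 of the 37 were higher in MET KO + EGFRi, against 48.2 percent of all genes. Rfc4, Rrm2 and Rpa2 were at least 2-fold higher there, against 3.33 percent of all genes. At day 0 only Rfc2 differed by 2-fold, being higher in MET KO + EGFRi, against 2.98 percent higher and 3.08 percent lower of all genes. Lower on both days 1 and 2 and higher on day 5 were 15 of the 37 genes, the very weak Pole among them, and 12.1 percent of all genes.

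**Figure D2:**
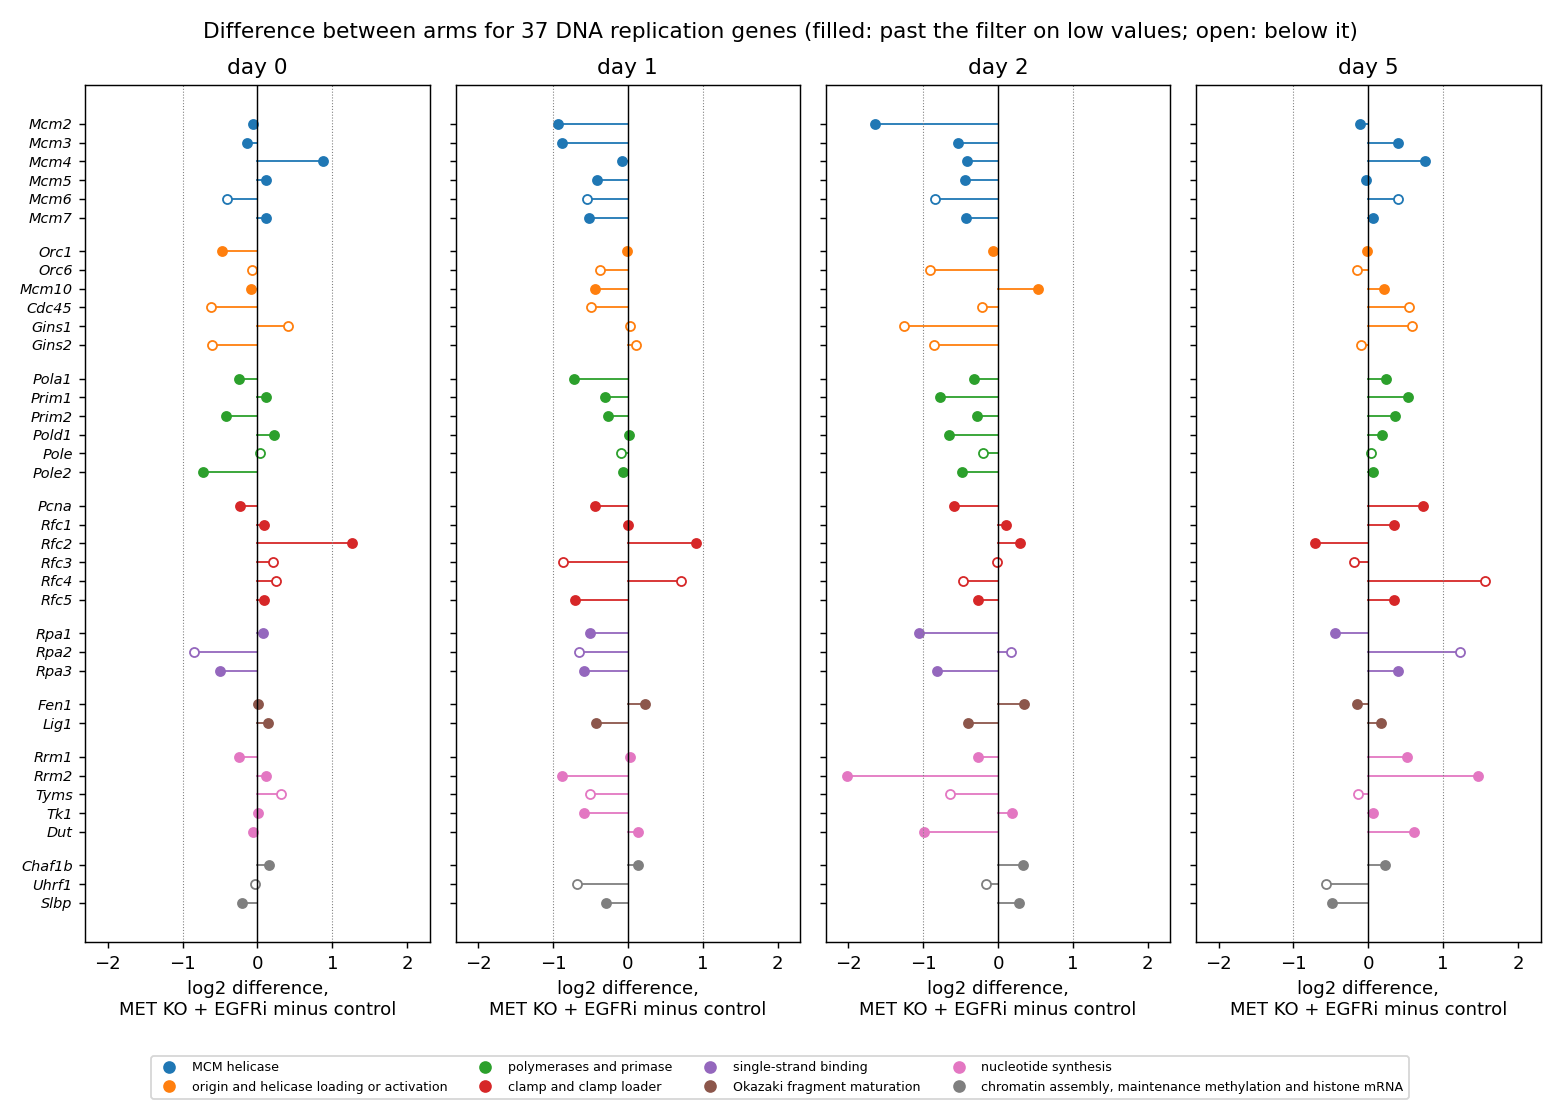
Log2 difference between the arms (horizontal axis, MET KO + EGFRi minus control) for each of the 37 genes (vertical axis, coloured by role) on days 0, 1, 2 and 5, 1 array per arm and day. Dotted lines mark 2-fold, filled points genes past the filter and open points the 11 below it. At day 2, 29 of 37 points lie left of 0, and at day 5, 25 lie right of it.

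No replication gene passed the test in any comparison that could be tested. limma fitted arm and day as additive terms over the 8 arrays, so that the mean difference between arms was judged by how it varied from day to day (3 residual degrees of freedom). Between the arms it called 0 of 26 tested replication genes at an adjusted p under 0.05, where 0.578 percent of the 12112 tested genes were called. At an unadjusted p under 0.05 there were 2, Mcm2 and Rpa1, both lower, and 5.99 percent of all tested genes were lower by that rule. Mcm2 had a mean difference of -0.68 with a standard error of 0.27 (limma adjusted p = 0.363), lower on 4 of 4 days, and Rpa1 one of -0.48 with a standard error of 0.18 (limma adjusted p = 0.355), lower on 3 of 4 days. Day 1 against day 0 over both arms gave 0 called replication genes (0.124 percent of all) and 8 of 26 higher at an unadjusted p under 0.05, where 4.48 percent of all tested genes were. Those were Mcm2, Mcm4, Mcm5, Mcm7, Pola1, Pcna, Rrm2 and Chaf1b. In the comparisons of days the 2 arms, though treated differently, stood in for replicates of a day. Day 2 against day 0 gave 0 called (0.0578 percent of all) and 6 higher without adjustment, against 4.34 percent. Day 5 against day 0 gave 0 called (0.33 percent of all) and 2 higher without adjustment, against 6.02 percent. For the difference in response between the arms, which left 2 residual degrees of freedom, 0 of 26 were called and 0 had an unadjusted p under 0.05, where 4.48 percent of all tested genes had. limma called 0 of the 12112 genes in that comparison. It took days 1, 2 and 5 together, so that differences of opposite sign on those days offset each other. The median difference in response of the 37 genes was -0.30, -0.35 and 0.25 on these days. Having 0 called thus does not show that the arms responded alike. All that follows on single days is therefore a description of 1 array per group.

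The promoters of these genes were read for the short sequences through which cell cycle transcription is known to act, because many of these genes were highest in control on the same days. RefSeq windows (GRCm38.p6, 250 bases before to 50 after a start) were found for 32 of the 38 genes. Both strands were searched for 2 forms of the E2F motif, TTCCCGC and TTGGCGC, and for the CCAAT box bound by NF-Y. The CCAAT box can share bases with the second E2F form. An E2F motif lay in a promoter of 18 of the 32 genes (56.2 percent), and in 7.79 percent of all 27025 genes of the table and 12.7 percent of the 9767 genes that passed the filter. A CCAAT box lay in 22 of 32, and in 41.1 percent of all. The median G and C content was 59.8 percent for the 32 genes and 60.0 percent for the genes past the filter. Of 29 E2F matches, 20 began within 100 bases of the start. A palindrome, as in Rfc1, counts on both strands, and the same share over all promoters was not counted. The promoters printed here are those of Mcm6 and Prim1, which hold an E2F motif and were lower in MET KO + EGFRi at day 2, of Rfc1, which holds one and hardly differed between the arms on that day, and of Rrm2 and Mcm2, which had the largest differences at day 2 and hold neither form in this window. All 5 were chosen after their day 2 values were seen. Each is written 5′ to 3′ along the gene, with E2F motifs and CCAAT boxes, on either strand, in capitals.
Mcm6, chr1:128359656-128359955, minus strand: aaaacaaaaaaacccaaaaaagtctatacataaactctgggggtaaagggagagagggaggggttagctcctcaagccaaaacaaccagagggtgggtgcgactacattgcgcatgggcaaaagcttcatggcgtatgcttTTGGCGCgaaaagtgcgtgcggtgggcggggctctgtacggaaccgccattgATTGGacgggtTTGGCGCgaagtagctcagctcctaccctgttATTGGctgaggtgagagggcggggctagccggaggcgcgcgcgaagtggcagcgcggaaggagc
Prim1, chr10:128014965-128015264, plus strand: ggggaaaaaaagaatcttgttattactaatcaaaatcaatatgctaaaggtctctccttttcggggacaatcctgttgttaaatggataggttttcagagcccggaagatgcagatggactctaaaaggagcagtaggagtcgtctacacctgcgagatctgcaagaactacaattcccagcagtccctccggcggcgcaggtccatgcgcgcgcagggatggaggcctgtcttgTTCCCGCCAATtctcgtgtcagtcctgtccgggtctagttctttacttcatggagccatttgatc
Rfc1, chr5:65335590-65335889, minus strand: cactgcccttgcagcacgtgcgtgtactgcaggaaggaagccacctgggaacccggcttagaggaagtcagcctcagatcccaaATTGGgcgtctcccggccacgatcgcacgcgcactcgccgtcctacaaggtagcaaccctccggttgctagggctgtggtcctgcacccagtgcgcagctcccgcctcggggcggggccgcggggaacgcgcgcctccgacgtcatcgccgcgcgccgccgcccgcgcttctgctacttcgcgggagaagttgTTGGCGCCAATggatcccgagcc
Rrm2, chr12:24708004-24708303, plus strand: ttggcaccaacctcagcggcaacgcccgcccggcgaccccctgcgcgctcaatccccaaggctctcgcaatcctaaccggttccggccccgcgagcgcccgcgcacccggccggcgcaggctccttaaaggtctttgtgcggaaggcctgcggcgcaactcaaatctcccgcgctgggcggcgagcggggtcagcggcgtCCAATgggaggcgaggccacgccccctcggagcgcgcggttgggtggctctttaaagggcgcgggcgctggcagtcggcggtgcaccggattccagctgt
Mcm2, chr6:88898731-88899030, minus strand: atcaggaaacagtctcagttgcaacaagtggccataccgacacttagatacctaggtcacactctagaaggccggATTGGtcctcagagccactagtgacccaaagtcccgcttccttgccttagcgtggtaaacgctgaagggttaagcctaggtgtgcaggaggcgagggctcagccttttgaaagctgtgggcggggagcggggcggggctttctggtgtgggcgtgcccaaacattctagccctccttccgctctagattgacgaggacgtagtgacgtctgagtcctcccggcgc

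In the promoter of Mcm6 the second E2F form stands 109 and 46 bases before the start, with inverted CCAAT boxes 57 and 14 bases before it. In that of Prim1 the first E2F form begins 15 bases before the start and runs into a CCAAT box. The second form in Rfc1 begins 27 bases after the start on the gene's strand and 30 bases after it on the other strand, inside 1 palindrome that ends in a CCAAT box. A further CCAAT box of Rfc1 stands inverted 166 bases before the start. The capitals of Rrm2 and Mcm2 are CCAAT boxes, 50 and 175 bases before the start. Among the genes with both a promoter and a probe set, the 17 with an E2F motif had a median change in control of 0.72 at day 1 and the 14 without one of 0.49, and both had 0.44 at day 2. Their median differences between the arms at day 2 were -0.43 and -0.42. A match describes the letters and says nothing of binding.

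**Figure D3:**
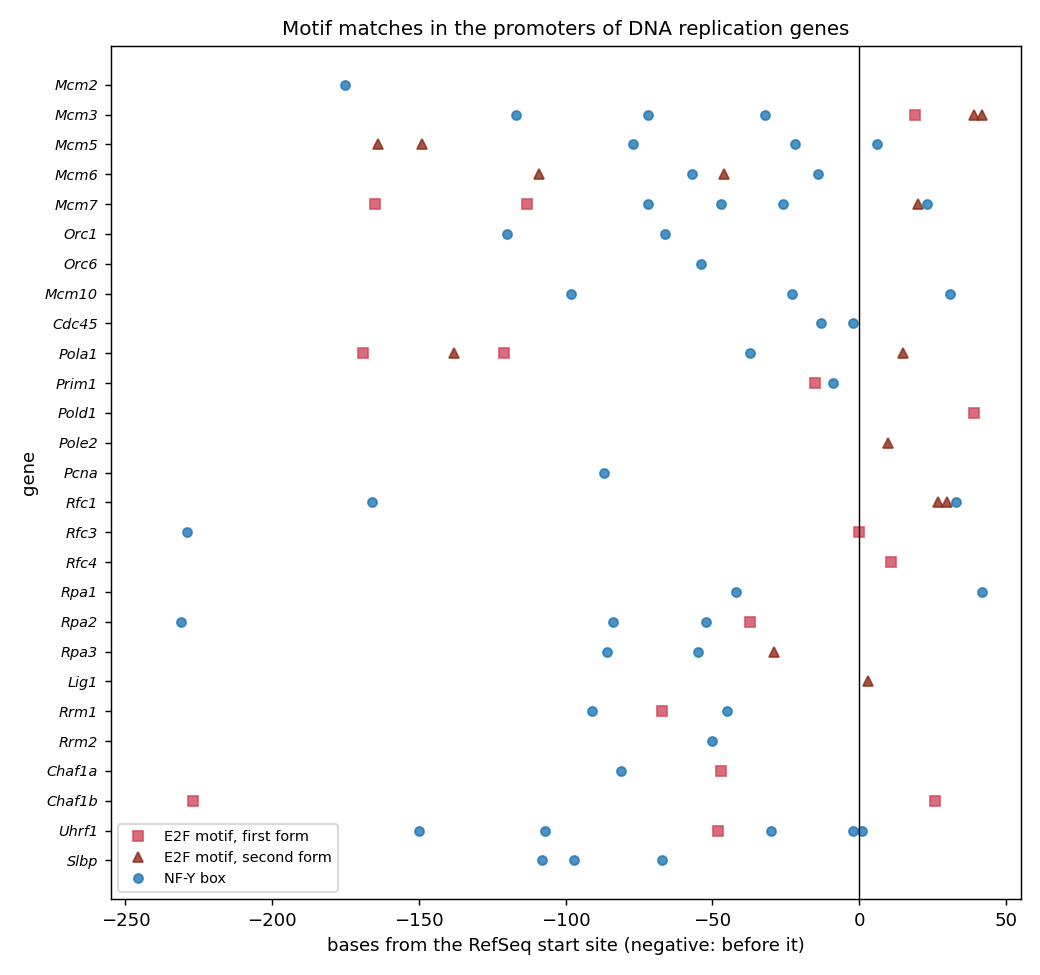
Position of each motif match (horizontal axis, bases from the RefSeq start site, negative before it) in the promoters of the 27 genes with at least 1 match (vertical axis). Squares and triangles are the 2 forms of the E2F motif and circles the NF-Y (CCAAT) box. Of the 29 E2F matches, with palindromes counted on both strands, 20 begin within 100 bases of the start.

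The 6 subunits of the MCM helicase, the ring that unwinds DNA at the fork, had the same sign on days 1 and 2 on the probe set read for each. All 6 were above day 0 in control at day 1 (median 1.11) and 4 were at least 2-fold so. All 6 were lower in MET KO + EGFRi than in control at day 1 (median -0.53, from -0.93 to -0.08) and again at day 2 (median -0.49, from -1.64 to -0.42). Weaker probe sets of Mcm3 (0.38) and Mcm5 (0.39) were higher in MET KO + EGFRi at day 1, as was a weaker probe set of Mcm6 (0.29) at day 2. Their remaining probe sets were lower on those days. At day 0 there were 3 higher and 3 lower, with a median of 0.02.

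Mcm2 had signals of 195, 1261, 1094 and 593 in control livers and 184, 629.8, 304 and 545 in those of MET KO + EGFRi. Both arms began alike, the control array of day 1 was the highest, and MET KO + EGFRi never reached the control values of days 1 and 2. The log2 differences were -0.93 at day 1 and -1.64 at day 2. Its other probe set had 222, 932, 885 and 406 in control livers and 192, 434, 345 and 488 in those of MET KO + EGFRi. Mcm7 had 852, 1939.6, 1734 and 1182 in control livers and 932, 1335, 1268 and 1233 in those of MET KO + EGFRi, so that the control stood apart on days 1 and 2 alone. Mcm5 had 371, 725, 698 and 431 in control livers and 405, 527, 494 and 419 in those of MET KO + EGFRi, with the same order. In both genes the MET KO + EGFRi arrays of days 1 and 2 lay between the control arrays of day 0 and day 1.

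Mcm4 differed in that its MET KO + EGFRi signal was already above control at day 0. It had 234, 955, 524 and 261 in control livers and 487, 899.5, 374 and 488 in those of MET KO + EGFRi, and at day 1 the arms were nearly level. Mcm3 had 281, 538, 344 and 179.7 in control livers and 247, 261, 215 and 259 in those of MET KO + EGFRi. On this probe set only the control array of day 1 stood well above the rest. A weaker probe set of Mcm3, named after its values were seen, was above day 0 at day 1 in both arms. It had 38.1, 352, 210 and 53.3 in control livers and 48.7, 258, 51 and 56.5 in those of MET KO + EGFRi. Mcm6, below the filter, had 89.4, 271, 238 and 82.4 in control livers and 50.5, 164, 101 and 131 in those of MET KO + EGFRi. On a weaker probe set of Mcm6, named after its values were seen, the signals were 24.3, 603, 246 and 26.2 in control livers and 16.0, 71.8, 155 and 144 in those of MET KO + EGFRi, with a wider gap at day 1.

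**Figure D4:**
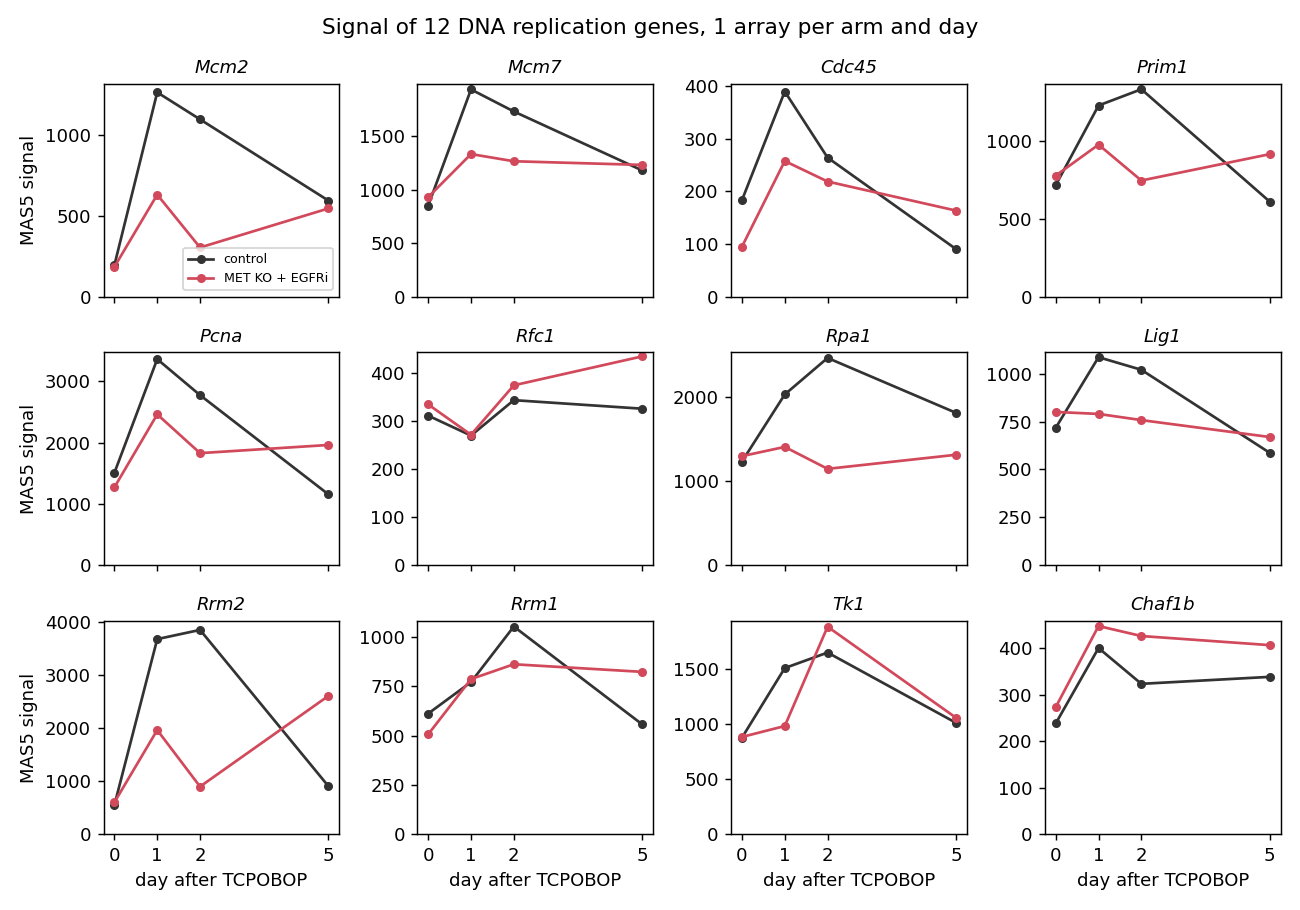
MAS5 signal (vertical axis, linear, from 0) of 12 replication genes by day after TCPOBOP (horizontal axis), 1 array per point, control in black and MET KO + EGFRi in red. For Mcm2, Mcm7, Prim1, Pcna, Rpa1, Lig1 and Rrm2 the control points of days 1 and 2 lie above those of MET KO + EGFRi, while Rfc1 and Chaf1b run close together. The day 5 points of Rrm2 lie at 905 for control and 2613 for MET KO + EGFRi.

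Among the proteins that load or start the helicase, 4 of 6 genes were below the filter and the group was less uniform. Cdc45, part of the active helicase, had 183, 389.6, 264 and 90.4 in control livers and 94.9, 258, 219 and 164 in those of MET KO + EGFRi. Both arms were highest at day 1, and the MET KO + EGFRi arm was lower on days 0, 1 and 2. Its other probe set was also lower in MET KO + EGFRi on those days, but was highest at day 5 in both arms (318 in control and 403.5 in MET KO + EGFRi). Gins1, a GINS subunit, had 142, 244, 277 and 37.9 in control livers and 210.5, 252, 75.2 and 91.8 in those of MET KO + EGFRi, with a log2 difference of -1.25 at day 2. Only the control array of day 5 was lower than its MET KO + EGFRi array of day 2. Orc6, of the origin recognition complex, had 28.1, 74.5, 143 and 37.6 in control livers and 23.2, 41.5, 42.9 and 26.6 in those of MET KO + EGFRi, highest in the control array of day 2. Gins2 had 167, 108, 204 and 98.8 in control livers and 85.4, 122, 81.1 and 87.2 in those of MET KO + EGFRi. Its other probe set, named after its values were seen, had 62.1, 265, 344 and 71.2 in control livers and 13.0, 73.1, 47.7 and 73.5 in those of MET KO + EGFRi, highest in control at day 2. Orc1, the largest origin recognition subunit, had 995, 943, 736 and 759.8 in control livers and 698, 933, 699.7 and 752 in those of MET KO + EGFRi. Mcm10, which helps start the helicase, had 2528, 2302, 1988 and 1879 in control livers and 2386, 1673, 2921 and 2193 in those of MET KO + EGFRi. Neither of these had its highest control signal on day 1 or 2. The group's median difference between arms was -0.19 at day 1 and -0.53 at day 2.

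Of the 6 genes of the polymerases and primase, Pole was too weak to read, with signals between 18.3 and 32.1 in all 8 arrays. On the probe set read, the others were all lower in MET KO + EGFRi at day 2, from -0.78 for Prim1 to -0.28 for Prim2. At day 5 they were all higher, from 0.07 for Pole2 to 0.53 for Prim1. Weaker probe sets of Pola1 (0.60), Prim2 (0.84) and Pole2 (0.07) were higher at day 2. At day 5 weaker probe sets of Pola1 (-0.13), Pold1 (-0.12) and Prim2 (-0.02) were lower. Their remaining probe sets had the sign of those read on these days. Prim1, the catalytic primase subunit, had 715, 1225, 1329.6 and 609 in control livers and 776, 975, 745 and 914 in those of MET KO + EGFRi. The control arrays of days 1 and 2 were its highest values, and by day 5 the order of the arms was reversed. Pola1, of the polymerase that extends the primer, had 205, 495, 316 and 256 in control livers and 162, 272, 239.6 and 314 in those of MET KO + EGFRi, with a difference of -0.72 at day 1. On its other probe set the difference at day 1 was 0.26. Pold1, of the lagging strand polymerase, had 447, 703, 632 and 640.4 in control livers and 534, 709, 377 and 737 in those of MET KO + EGFRi. The MET KO + EGFRi array of day 2 was the lowest of the 8, followed by the day 0 arrays of both arms. Prim2, the large primase subunit, had 537, 626, 591 and 611 in control livers and 384, 509, 475 and 799.9 in those of MET KO + EGFRi. Pole2, an accessory subunit of the leading strand polymerase, had 548, 557, 515 and 471 in control livers and 304, 531, 348 and 496 in those of MET KO + EGFRi. In both genes the control values varied little from day to day and the MET KO + EGFRi array of day 0 was the lowest of the 8.

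The clamp and its loader did not share a sign on the probe sets read. Pcna, the clamp itself, had 1509, 3359.5, 2774 and 1157 in control livers and 1272, 2461, 1829 and 1962 in those of MET KO + EGFRi. Its control signal was highest at day 1, and at day 5 the MET KO + EGFRi signal was the higher (log2 difference 0.73). Rfc1, the large loader subunit, had 312, 270.5, 344 and 326 in control livers and 335, 272, 375 and 435 in those of MET KO + EGFRi, and the arms were as close as 0.01 at day 1. Rfc5 had 495, 685, 562 and 430.2 in control livers and 531, 394, 456 and 565 in those of MET KO + EGFRi, lower in MET KO + EGFRi at day 1 (-0.70). Rfc2 ran the other way, with 572, 751, 1008 and 1023 in control livers and 1464, 1479.6, 1247 and 599.5 in those of MET KO + EGFRi, so that MET KO + EGFRi was higher on days 0, 1 and 2 and lower on day 5. Its other, weaker probe sets were also higher on days 0 and 1. They were lower at day 2 (-0.30 and -0.87) and higher at day 5 (0.56 and 0.70). Rfc3 and Rfc4 were below the filter. Rfc4 had 143, 140.2, 215 and 35.5 in control livers and 184, 274, 136 and 244 in those of MET KO + EGFRi, and its difference of 1.56 at day 5 rests on a low control array. Rfc3 had 191, 368, 256 and 201 in control livers and 231, 170.5, 252 and 168 in those of MET KO + EGFRi, with a difference of -0.86 at day 1 and -0.02 at day 2. On its other probe set these differences were -1.62 and -1.32.

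The RPA proteins coat single-stranded DNA at the fork. Rpa1, the large subunit, had 1232, 2026, 2459 and 1809 in control livers and 1296, 1405, 1145 and 1312 in those of MET KO + EGFRi. The 4 MET KO + EGFRi values spanned a narrow range, while the control values of days 1, 2 and 5 all lay above them. The log2 difference was -1.06 at day 2, and the second Rpa1 probe set had 294, 876, 1115 and 671 in control livers and 566, 563, 569 and 470.1 in those of MET KO + EGFRi. Rpa3, the small subunit, had 569, 493, 725 and 434 in control livers and 383, 305, 383 and 596 in those of MET KO + EGFRi, lower in MET KO + EGFRi on days 0, 1 and 2. Rpa2, below the filter, had 129, 263, 122 and 36.0 in control livers and 40.3, 142, 147 and 179.5 in those of MET KO + EGFRi, with a difference of 1.23 at day 5.

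Of the enzymes that finish Okazaki fragments, the DNA ligase Lig1 had 717, 1085, 1019 and 587 in control livers and 799.7, 789.5, 757 and 669 in those of MET KO + EGFRi. Control was above MET KO + EGFRi on days 1 and 2, and the MET KO + EGFRi arm never exceeded its day 0 value. The flap nuclease Fen1 had 363, 379, 306 and 427 in control livers and 363, 458, 407 and 379 in those of MET KO + EGFRi on the probe set with the highest mean, where the control array of day 2 was the lowest of the 8. Its other probe set, named after its values were seen, had 49.0, 384, 560.5 and 25.4 in control livers and 197, 314, 130.1 and 176 in those of MET KO + EGFRi, with its highest value in control at day 2 and a log2 difference of -1.65 there. The reading of Fen1 thus depends on the probe set.

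In nucleotide synthesis, Rrm2 had the widest range of differences between the arms among the 37 genes. It had 551, 3684, 3857 and 905 in control livers and 603, 1967, 899.5 and 2613 in those of MET KO + EGFRi. The arms were close at day 0, control stood higher on days 1 and 2 and lower on day 5. The log2 difference was -0.88 at day 1, -2.02 at day 2 and 1.46 at day 5. Its second probe set was already lower in MET KO + EGFRi at day 0 (-1.24). The partner subunit Rrm1 had 612, 772, 1054 and 557 in control livers and 507, 787, 862 and 824 in those of MET KO + EGFRi, a smaller range in both arms. Thymidine kinase Tk1 had 874, 1504, 1644 and 1008 in control livers and 880.5, 979, 1878 and 1054 in those of MET KO + EGFRi, which was lower in MET KO + EGFRi at day 1 and not at day 2. In that arm Tk1 was highest at day 2. The dUTPase gene Dut had 376, 385, 553 and 234 in control livers and 358, 429, 243 and 393 in those of MET KO + EGFRi, with a difference of -0.99 at day 2, just short of 2-fold, and on its other probe set MET KO + EGFRi was the higher (1.08). Thymidylate synthase Tyms, below the filter, had 156, 185, 137 and 142 in control livers and 212, 109.5, 62.7 and 122 in those of MET KO + EGFRi.

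Of the genes for copying chromatin, Chaf1b, a subunit of the histone chaperone CAF-1, had 238, 400.4, 323 and 338 in control livers and 273, 448, 426 and 407 in those of MET KO + EGFRi and was among the 2 genes, with Rfc1, that were higher in MET KO + EGFRi on all 4 days (5.41 percent of the 37, and 8.88 percent of all genes). Other probe sets did not share this, with -1.25 at day 5 for Chaf1b and -0.64 at day 0 for Rfc1. In both arms the highest value of Chaf1b was that of day 1. Uhrf1, which guides maintenance methylation behind the fork, had 65.6, 367, 251 and 202 in control livers and 62.0, 203, 216 and 114 in those of MET KO + EGFRi. On this probe set it was at least 2-fold above day 0 at days 1 and 2 in both arms. Its other probe set, mostly below the pseudocount, did not share this. It had 13.1, 105, 31 and 14.3 in control livers and 18.6, 21.6, 9.7 and 26.5 in those of MET KO + EGFRi. Slbp, the stem-loop binding protein of histone mRNA, had 801, 700.1, 731 and 794 in control livers and 687, 559, 904 and 545 in those of MET KO + EGFRi, and its control array of day 0 was the highest of that arm.

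The other probe sets of the same genes were read as a check on the choice of probe set. Of 46 further probe sets, 33 were lower in MET KO + EGFRi at day 1 and 35 at day 2, with medians of -0.39 and -0.49, and 18 were lower at day 5, with a median of 0.13. At day 2, all probe sets of a gene had the same sign for 16 of the 30 genes that had several. Those that did not were Dut, Fen1, Gins1, Mcm10, Mcm6, Orc1, Pola1, Pole2, Prim2, Rfc1, Rfc2, Rpa2, Slbp and Tyms. At day 1 the probe sets had the same sign for 17 of the 30, and Mcm3 and Mcm5 were among those that did not. At day 5 the probe sets had the same sign for only 10 of the 30, and Mcm2, Mcm5, Mcm7, Rfc4 and Rpa2 were among those that did not. The probe sets read for Mcm2, Mcm3, Mcm6, Gins2, Fen1 and Rrm2 are of the kinds (_s_at or _x_at) that can bind related RNAs.

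**Figure D5:**
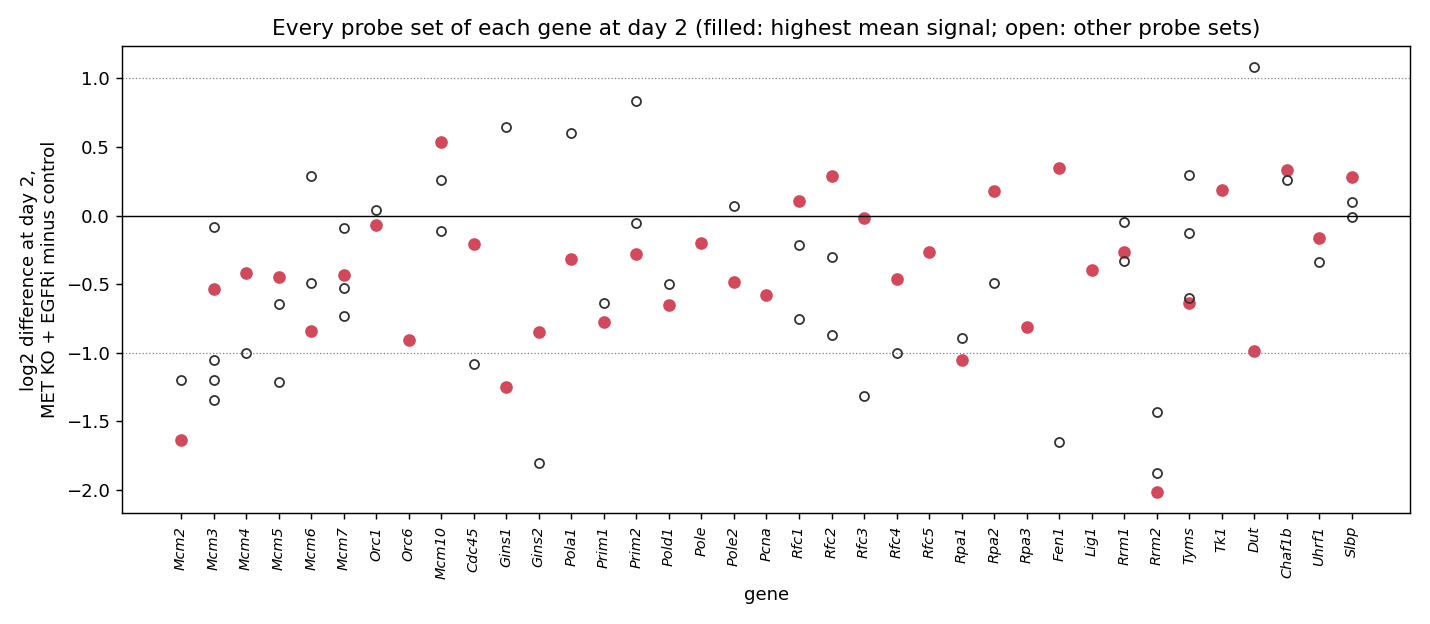
Log2 difference at day 2 (vertical axis, MET KO + EGFRi minus control) of all 83 probe sets of the 37 genes (horizontal axis). Filled points are the probe sets with the highest mean signal and open points the 46 others. Of the 83, 64 lie below 0.

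Beyond the 37 genes, 49 of 51 other replication genes on a list of licensing factors, further polymerase subunits, fork protection and nucleotide genes had a probe set. Their median difference between the arms was -0.26 at day 1 and -0.17 at day 2. Of the 49, 38 were lower at day 1 and 35 at day 2, against 49.5 and 46.8 percent of all genes. limma tested 37 of them and called 0 in each of the 5 comparisons. Between the arms 2 had an unadjusted p under 0.05, both lower, where 5.99 percent of all tested genes were lower by that rule. Geminin (Gmnn), the inhibitor of relicensing, had 360.5, 1034, 946 and 332 in control livers and 164, 328, 549.5 and 698 in those of MET KO + EGFRi. The histone chaperone Asf1b had 139, 635, 717 and 397 in control livers and 123, 411, 299 and 569 in those of MET KO + EGFRi. The topoisomerase Top2a had 231, 488, 724 and 441 in control livers and 119, 324, 419.8 and 519 in those of MET KO + EGFRi. These 3 were lower in MET KO + EGFRi on days 0, 1 and 2 and higher on day 5. Ticrr, which helps activate the helicase, was higher in MET KO + EGFRi at day 2, with 539, 378, 203 and 581 in control livers and 268, 237, 469 and 232 in those of MET KO + EGFRi. Orc3, of the origin recognition complex, had 551, 741, 362 and 778 in control livers and 853, 862, 637 and 652 in those of MET KO + EGFRi. The polymerase delta subunit Pold2 had 278, 560.3, 519.9 and 344 in control livers and 188, 261, 292 and 356 in those of MET KO + EGFRi.

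For the phase that follows replication, the list of 34 measured G2/M and mitosis genes had a median difference between the arms of -0.22 at day 1 and -0.59 at day 2, and of 0.13 at day 5. At day 2, 11 of 34 were at least 2-fold lower, where 2.77 percent of all genes and 4 of the 37 replication genes were. At least 2-fold higher were 2 of the 34 (Cdc25c and Kif23, both below the filter and named after their values were seen), against 3.77 percent of all genes. In control the median of that list was 0.59 at day 1 and 0.75 at day 2, and that of the replication genes was 0.57 and 0.44. The spindle checkpoint gene Mad2l1 had 158, 530.5, 1963 and 188 in control livers and 202, 376, 56.4 and 432 in those of MET KO + EGFRi, with the widest gap at day 2. The mitotic cyclin gene Ccnb2 had 40.7, 424, 2030.4 and 269 in control livers and 35.1, 174, 163 and 422 in those of MET KO + EGFRi, highest in control at day 2. The difference between both lists was not tested.

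Markers of the cells of the liver were read beside these values. Hepatocyte markers had a median difference between the arms of -0.02 at day 1 and 0.58 at day 2, over 7 of 8 genes with a probe set, and summed signals from 193708 to 317385 over the control arrays and 200022 to 312455 in MET KO + EGFRi. Kupffer cell markers, 10 of 10, had medians of 0.73 and 0.97, with sums from 16075 to 35756 and 28866 to 51289. Neutrophil and monocyte markers, 5 of 8, had 0.49 and 0.39, whose sums did not overlap between the arms, from 1853 to 2286 and 4666 to 5269.6. Within that list S100a8 and S100a9 were higher in MET KO + EGFRi on every day, and Csf3r, Cxcr2 and Ccr2 on some days and not on others. Stellate sums did not overlap either, from 8179 to 8923 over the control arrays and 10701 to 14131 over the others. That gap rests largely on Dcn, with 4152, 3946, 4370 and 3904 in control livers and 6305, 8464, 9520 and 8994 in those of MET KO + EGFRi. Acta2 was slightly higher in MET KO + EGFRi on every day. Lrat, Reln, Col1a1, Col3a1 and Pdgfrb were higher on some days and lower on others. The share of all genes without overlap was not counted. The medians at day 2 were 0.65 for sinusoidal endothelial, 0.24 for stellate, 0.04 for lymphocyte, 0.16 for plasma cell, 0.17 for erythroid, -0.20 for cholangiocyte and 0.22 for pancreas, adipose and muscle markers. No marker was at 0. The hepatocyte, Kupffer cell and endothelial medians were above 0 on the day when the replication genes had their lowest median, and the part of any cell type in the replication values was not tested. Of 14 reference genes 10 had a probe set, with a median difference of -0.13 at day 1 and 0.05 at day 2.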

How the data were processed

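The deposited intensity values, 1 signal for each probe set and array, were made by the authors with MAS5, per the submitters' processing notes, from 8 arrays of pooled mouse liver (6 µg of total RNA each, per the labels' protocols). The version, masking and detection calls are not given in the sources used here. In the values, the mean after trimming 2 percent at each end is 500.0 in every array.

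Leaving out 64 controls of 45101 probe sets, 34945 had 1 gene, 932 several and 9160 none listed. The log2 of each signal plus 71 was used. A gene was read on its probe set of highest mean, and 12112 of 18193 genes with a mean of at least 8.24 entered the fits (limma 3.58.1, R 4.3.3, variance trend, Benjamini-Hochberg adjustment over all of them, threshold 0.05). Day contrasts came from the same fit, and the difference in response added an interaction of arm with TCPOBOP (days 1, 2 and 5 against day 0). With 1 array per group, comparisons of 2 arrays were described by folds of at least 2, without a test. The p-values between the arms measure how the difference between pools varies from day to day. Those of the day contrasts measure how the change varies between the 2 arms, which were treated differently and stood in for replicates. None measures how animals vary, and precision is limited by the number of arrays. The fits were tested on simulated data. The 38 genes, their groups and all lists were chosen with earlier results of these data known. All replication genes could be named. From each other list, genes past the filter with the largest difference between the arms at day 2 were named, up to 6 for further replication genes and up to 4 otherwise. Promoters came from RefSeq (GRCm38.p6), and no protein sequence was used. Alternatives changed the pseudocount, filter, probe sets, normalization, variance trend and arrays.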

Additional observations from a re-analysis of the deposited data

Results flagged for a closer look

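Between days 2 and 5 Rrm2 differed at least 2-fold in each arm, downward in control and upward in MET KO + EGFRi, which set it apart among the 37 genes. Its log2 change from day 2 to day 5 was -2.01 in control and 1.47 in MET KO + EGFRi, each from 1 array per day, and the difference was not tested. Its other probe sets had 868 and 452 on these days in control, with 277 and 662 in MET KO + EGFRi, and 687 and 149 against 136 and 402, with the same directions. Of the 37 genes, only Rrm2 did so in any of the 4 contrasts of days compared (days 1, 2 and 5 against day 0, and day 5 against day 2). Outside the 37 genes, the mitosis genes Mad2l1 and Ccnb2 also fell in control and rose in MET KO + EGFRi from day 2 to day 5.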

How the results depend on the processing

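In the 5 limma comparisons 0 replication genes were called under each alternative run, the fits without 1 array included (0 to 0). The smallest adjusted p of a replication gene ran from 0.228 to 0.738 between the arms and from 0.0797 to 0.773 for day 1 against day 0. Genes called between the arms over the whole array ran from 20 to 90, 70 as reported, with 20 and 21 without the day 1 arrays of MET KO + EGFRi and control, and 28 when no filter on low values was applied. For day 5 against day 0, 40 genes were called as reported, and 6, 7, 4 and 3 without control day 0, control day 5, MET KO + EGFRi day 0 and MET KO + EGFRi day 5. For day 1 against day 0 the 15 genes became 2 without either day 1 array, and the 7 for day 2 became 2 without either day 2 array or that of MET KO + EGFRi day 0. Over all alternatives these counts ran from 3 to 76, 2 to 27 and 2 to 16. The interaction could not be fitted without a day 0 array. No paired analysis was possible because the labels give no replicate numbers, beyond the fit of arm and day, which compares the arms within each day. Between the arms the median of the 37 genes was below 0 at days 1 and 2 and above 0 at day 5 under every alternative run, and at day 0 it ran from -0.03 to 0.07. It moved by more than 0.1 in these cases. With the median signal as pseudocount it was -0.28 at day 1 and -0.31 at day 2 between the arms, and 0.42 and 0.32 for control against day 0. Without a pseudocount control at day 1 was 0.72. The 13 genes above the upper quartile had a day 2 median of 0.75 in control livers and 0.28 in those of MET KO + EGFRi, and plain _at probe sets gave 0.57 in control. The medians of the 26 genes past the filter, an alternative chosen after seeing the data, moved by less than 0.1 in all 10 comparisons with no test. Of the 2-fold differences between arms, those of Mcm2 and Rrm2 at day 2 stayed at least 2-fold under 5 of 5 alternatives and that of Rpa1 under 1, from -1.10 to -0.89. Gins1 at day 2 ran from -1.88 to -0.30, Rpa2 and Rfc4 at day 5 from 0.26 to 2.32 and 0.77 to 2.78, and Rrm2 at day 5 from 0.49 to 1.53, and Rfc2 at day 0 from 0.56 to 1.36, without a change of sign. The causes were not tested. Signals below the pseudocount in all 8 arrays, as for Pole, cannot show a difference.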

Other observations

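The regulators upstream of replication were read on a list of 29 E2F and G1/S genes. Their median difference between the arms was 0.01 at day 0, -0.16 at day 1, -0.19 at day 2 and 0.08 at day 5. Of the 29, 20 were lower at day 1 and 21 at day 2, against 49.5 and 46.8 percent of all genes. limma tested 26 and called 0 in each of its 5 comparisons. Between the arms 5 had an unadjusted p under 0.05, of which 4 were lower, where 5.99 percent of all tested genes were lower by that rule. E2f2, an activator of the E2F family, had 297, 407, 356 and 279.8 in control livers and 196, 260.5, 70.7 and 261 in those of MET KO + EGFRi, and only the MET KO + EGFRi array of day 2 was near background. Ccna2, the S phase cyclin, had 356, 592, 921 and 487 in control livers and 453, 418, 387 and 706 in those of MET KO + EGFRi. Its control signal was highest at day 2, and its MET KO + EGFRi signal at day 5. Cyclin D1 (Ccnd1) had 4553, 6318, 6381 and 5647 in control livers and 1232, 3172, 3571 and 4264 in those of MET KO + EGFRi, lower in MET KO + EGFRi on each day and furthest from control at day 0, where the median difference of the 37 replication genes was 0.00. The CDK inhibitor gene Cdkn1b had 136, 227, 438 and 278 in control livers and 403, 384, 258 and 353 in those of MET KO + EGFRi, higher in MET KO + EGFRi on days 0, 1 and 5.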
